A study of Saccharomyces cerevisiae with 227 samples.

Results

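The proteasome is the protease complex that degrades ubiquitin-tagged proteins in the cytosol and nucleus, and its RNA was followed here through the 33 ORFs of its subunits and their activator. These are 32 subunit genes and RPN4, taken by ORF name from a table of 5609 ORFs, and all 33 have values. Saccharomyces cerevisiae JM43, a MATα strain with mutations in LEU2, HIS4, TRP1 and URA3, was grown in batch fermentors sparged with air and measured on 227 2-color oligonucleotide arrays, in 7 time courses whose samples are named by the number of generations after the shift. In galactose medium (SSG-TEA, which supplies the sterol and fatty acid that yeast cannot make without oxygen), wild-type cells were shifted to O2-free N2 for up to 6 generations, an msn2/4 mutant strain was shifted to N2 for up to 2 generations, and wild-type cells were treated with 1 μM antimycin A, an inhibitor of the cytochrome bc1 complex, for 3 generations in air and then for 3 generations in N2. In glucose medium (SSD-TEA) wild-type cells were shifted to N2 for up to 6 generations, and in both media cells anaerobic for 6 generations were returned to air and followed to 7.6 generations. Every group has 3 arrays except 0.38 generations of N2 in glucose, which has 2.

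The proteasome consists of a barrel-shaped core, in which a pair of outer alpha rings guards the entry and a pair of inner beta rings carries the protease sites, and of a regulatory particle that recognizes ubiquitin chains and unfolds substrates. The regulatory particle has a base, with a ring of ATPases that sits on the core, and a lid, which removes the ubiquitin. In yeast the subunit genes are activated together by Rpn4, a transcription factor that is itself a very short-lived substrate of the proteasome, so that its protein accumulates when proteasome capacity is short. Rpn4 protein was not measured here, and an RNA level does not give it. The 7 alpha ring genes are SCL1 (YGL011C), PRE8 (YML092C), PRE9 (YGR135W), PRE6 (YOL038W), PUP2 (YGR253C), PRE5 (YMR314W) and PRE10 (YOR362C). The 7 beta ring genes are PRE3 (YJL001W), PUP1 (YOR157C) and PRE2 (YPR103W), which encode the subunits with active sites, and PUP3 (YER094C), PRE1 (YER012W), PRE7 (YBL041W) and PRE4 (YFR050C). The base holds the 6 ATPases RPT1 (YKL145W), RPT2 (YDL007W), RPT3 (YDR394W), RPT4 (YOR259C), RPT5 (YOR117W) and RPT6 (YGL048C) and the 4 other subunits RPN1 (YHR027C), RPN2 (YIL075C), RPN10 (YHR200W) and RPN13 (YLR421C), of which RPN10 and RPN13 encode ubiquitin receptors. The 8 lid genes of this set are RPN3 (YER021W), RPN5 (YDL147W), RPN6 (YDL097C), RPN7 (YPR108W), RPN8 (YOR261C), RPN9 (YDR427W), RPN11 (YFR004W), which encodes the deubiquitinase, and RPN12 (YFR052W). SEM1 was not among them and was followed with the proteasome-associated proteins. RPN4 is YDL020C.

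Each value is the log2 ratio of a sample (Cy3) over a reference RNA (Cy5). The reference was a pool of time points for most courses, a pool of anaerobic and re-aerated RNA for the antimycin A arrays, and by its label the wild-type galactose reference for msn2/4. Levels were compared only with the control of the same time course, which was 0 generations for the shifts to N2 and for antimycin A in air, 3 generations of antimycin A in air for the subsequent N2, and 6 generations of N2 for re-aeration. The medians of the arrays lay between −0.08 and 0.09. Between replicate arrays the correlation over all ORFs had a median of 0.85, and the lowest value, 0.457, came from 3 generations of antimycin A in air, where 1 of the arrays stood apart. Between any arrays of 1 time course the lowest correlation was −0.53, in N2 in galactose. Per the methods, consecutive time points of the antimycin A cultures came from alternating fermentor runs, which the labels do not name. The msn2/4 strain was checked on MSN2 itself, which was at −4.85 ± 0.62 in its aerobic arrays and at 0.19 ± 0.17 in those of the wild type (SD, n = 3), and on MSN4, at −1.73 ± 0.39 and −0.40 ± 0.26. Of the 7491 values of the proteasome genes 17 were missing, 10 of them of PUP1. Each time point was compared with its control in limma over all ORFs, with p-values adjusted over the ORFs of a time point. A gene is called where Holm's adjusted p is 0.01 or less, the rule of the study's methods. The counts at the same threshold by the Benjamini-Hochberg adjustment are given beside it.

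After the shift to N2 in galactose, 14 of the 32 subunits rose by Holm's adjustment and 29 by Benjamini-Hochberg at 1 or more time points up to 0.25 generations, and none was called after that. Over the whole course 21.6% of all ORFs were called as higher by Holm's adjustment, and 74.4% in either direction by Benjamini-Hochberg. The median change of the 32 subunits was 0.11 on the log2 scale at 0.04 generations, 0.41 at 0.08, 0.49 at 0.13, 0.51 at 0.19 (1.42-fold) and 0.27 at 0.25, while the median of all ORFs stayed between −0.01 and 0.04. Taken array by array, this median was 0.48 ± 0.02 at 0.13 generations and 0.49 ± 0.04 at 0.19 (SD, n = 3). From 0.38 to 6 generations it lay between −0.05 and 0.02. All 32 subunits were above the control mean at 0.13, 0.19 and 0.25 generations.

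**Figure D1:**
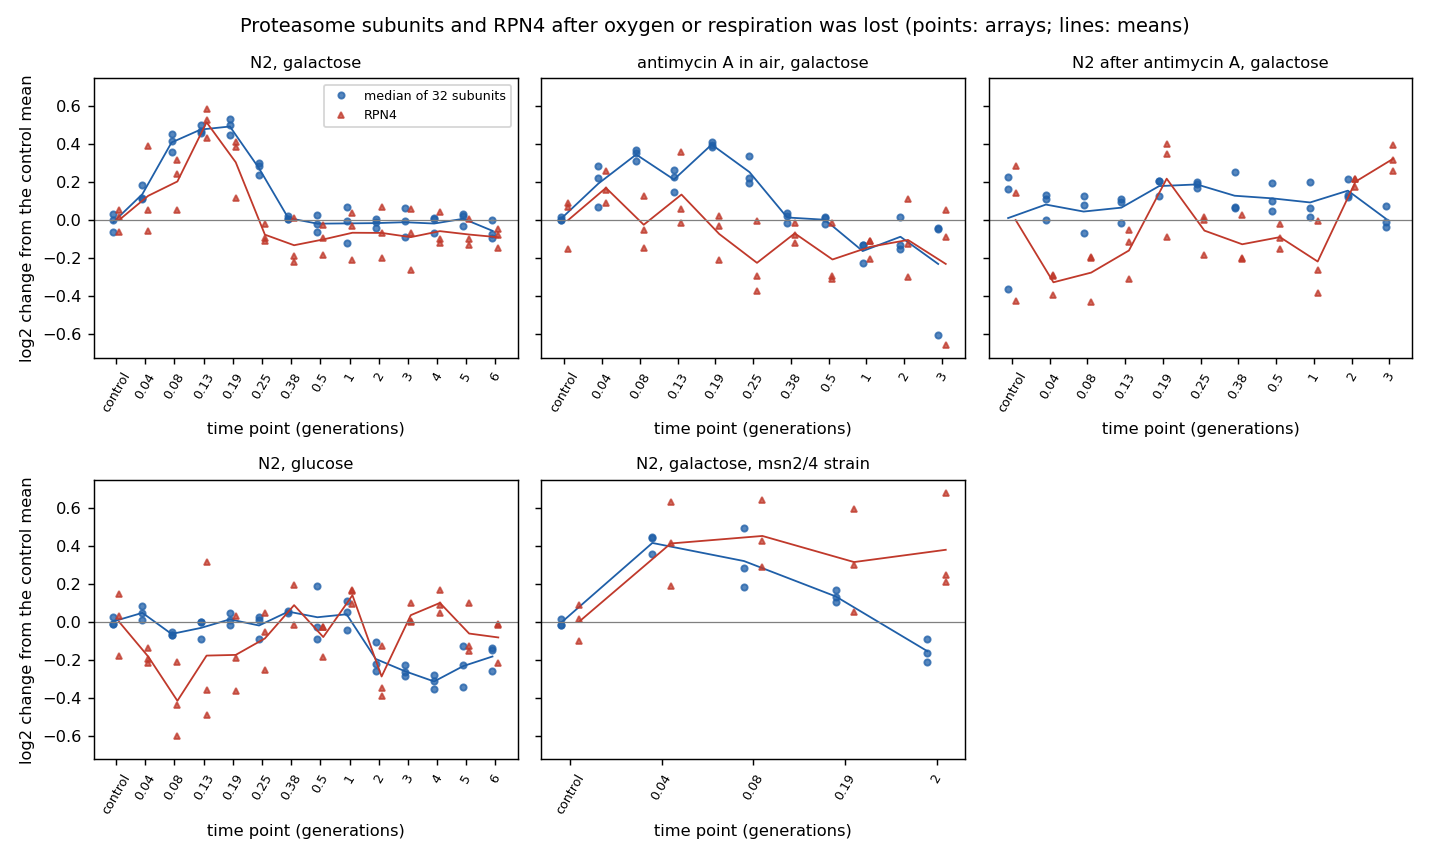
Log2 change from the control mean (y axis) at each time point (x axis, generations) for the median of the 32 subunits (circles) and RPN4 (triangles), 1 point per array and lines through the means, in the 5 time courses of lost oxygen or respiration. In N2 in galactose the means of the subunit medians reach 0.49 at 0.19 generations and are back near 0 at 0.38. In N2 in glucose these means stay near 0 up to 1 generation and lie between −0.18 and −0.31 from 2 generations on.

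By Holm's adjustment 14 of the 33 genes were called at 1 or more time points of N2 in galactose (42.4%, against 43.3% of all ORFs tested in either direction). Of all ORFs 21.6% were called as higher and 25.8% as lower at 1 or more time points. All 14 genes were subunits, all were higher, and all were called between 0.08 and 0.19 generations. At 0.08 generations 10 of the 32 subunits were called as higher (11.3% of all ORFs were), at 0.13 generations 7 (11.4%) and at 0.19 generations 11 (6.10%). By Benjamini-Hochberg 30 of the 33 genes were called at 1 or more time points (74.4% of all ORFs), all but PRE9, PRE10 and RPN13. The subunits called as higher by that adjustment numbered 5 at 0.04 generations (6.86% of all ORFs), 19 at 0.08 (25.2%), 26 at 0.13 (24.9%), 26 at 0.19 (16.9%) and 11 at 0.25 (12.5%), and none from 0.38 on. At 0.19 generations the 3 arrays of 29 of the 32 subunits lay above all 3 control arrays (26.7% of all ORFs). Leaving out replicate number 1, 2 or 3 left 4, 1 and 3 genes called by Holm's adjustment and 25, 21 and 26 by Benjamini-Hochberg, and none of the 33 was called by Holm's adjustment when each fit held only the 6 arrays compared.

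RPN12, a lid subunit, rose most. Its aerobic arrays were at −0.16, −0.13 and −0.34, its arrays at 0.08 generations at 0.49, 0.60 and 0.54, and those at 0.13 generations at 0.54, 0.72 and 0.58. The groups did not overlap, and the change at 0.13 generations was 0.82 ± 0.09 (limma SE, 1.77-fold, Holm's adjusted p = 5.65e-07). RPN11, the deubiquitinase of the lid, went from −0.31, −0.38 and −0.03 in air to 0.72, 0.54 and 0.40 at 0.08 generations. That is a change of 0.80 ± 0.12 (adjusted p = 0.000514), which was down to 0.50 at 0.13 and 0.46 at 0.19 generations. PRE1, a beta ring subunit, went from −0.19, −0.22 and −0.21 to 0.33, 0.56 and 0.62 at 0.08 generations, a change of 0.71 ± 0.11 (adjusted p = 0.000717). None of these arrays overlapped with those of the control.

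The medians of the parts of the complex lay apart at the first time points. At 0.04 generations 4 of the 5 subunits called by Benjamini-Hochberg belonged to the lid, namely RPN3 (0.40), RPN9 (0.44), RPN11 (0.49) and RPN12 (0.40), and the other was PUP3 of the beta ring (0.31). At 0.08 generations Holm's adjustment called 6 of 8 lid subunits (RPN3, RPN5, RPN6, RPN9, RPN11 and RPN12), 3 of 7 beta ring subunits (PUP3, PRE1 and PRE4), PRE8 of the alpha ring and none of the 10 base subunits. The median change of the lid was then 0.69 ± 0.08, that of the beta ring 0.48 ± 0.00, of the alpha ring 0.30 ± 0.04, of the ATPases 0.24 ± 0.01 and of the other base subunits 0.26 ± 0.06 (mean ± SD of 3 arrays). By 0.19 generations these medians had drawn together, at 0.55, 0.51, 0.54, 0.46 and 0.46 in the same order. At that time point Benjamini-Hochberg called 7 of 8 lid, 7 of 7 beta ring, 4 of 7 alpha ring, 5 of 6 ATPase and 3 of 4 other base subunits. The difference between the parts was not tested.

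**Figure D2:**
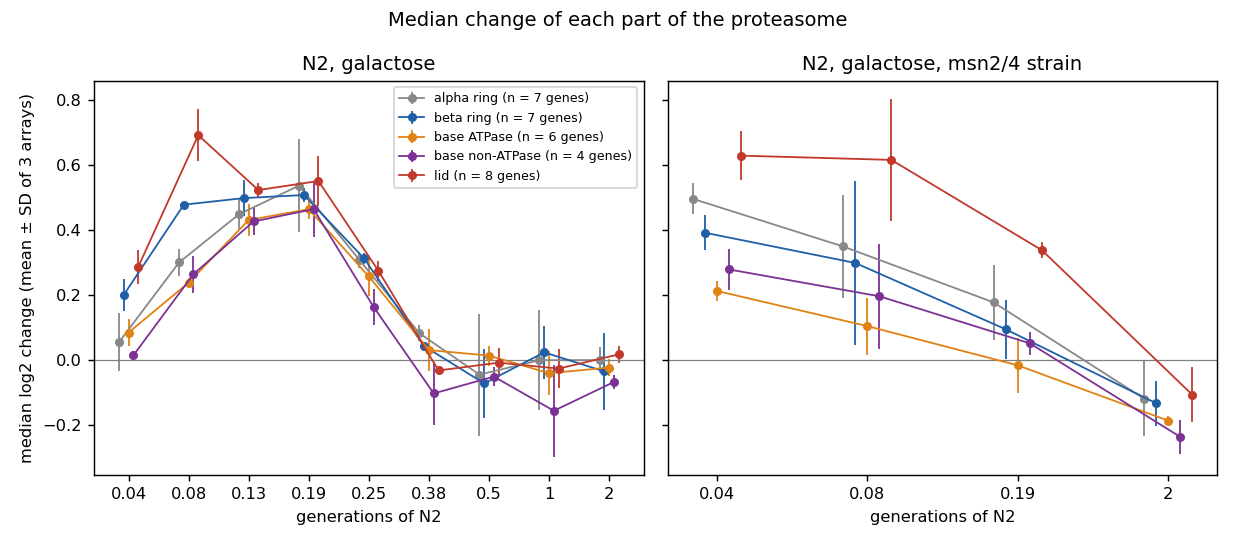
Median log2 change from the control (y axis, mean ± SD of 3 arrays) of the genes of each part of the proteasome against generations of N2 (x axis) in galactose, for the wild type (left) and the msn2/4 strain (right). In the wild type the lid is at 0.69 at 0.08 generations, when the ATPases of the base are at 0.24, and all parts lie between 0.46 and 0.55 at 0.19 generations.

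The subunits that moved late or little were of several parts. RPN7 of the lid was at 0.07 at 0.04 generations and was called at 0.19 generations (0.68 ± 0.09, adjusted p = 9.97e-05), as were the ATPases RPT1 (0.59 ± 0.09, adjusted p = 0.000927) and RPT2 (0.62 ± 0.10, adjusted p = 0.0025). SCL1 of the alpha ring was called at 0.19 generations as well (0.57 ± 0.08, adjusted p = 0.000339). PRE2 and PRE3, which carry active sites, reached 0.61 and 0.65 at 0.19 generations and missed Holm's threshold (adjusted p = 0.0581 and 0.0534). The ubiquitin receptor RPN13 stayed lowest, at 0.17 ± 0.19 at 0.13 generations and 0.10 ± 0.19 at 0.19. PRE9, which encodes the alpha ring subunit that yeast can do without, was at 0.19 ± 0.13 and 0.37 ± 0.13 at these time points. PRE10, PRE5, RPT3 and RPN8 were at 0.41, 0.30, 0.24 and 0.31 at 0.19 generations and missed both thresholds there.

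RPN4 itself was highest at 0.13 generations and was back by 0.25. It was at −0.01, 0.02 and −0.09 on the aerobic arrays, at 0.56, 0.50 and 0.41 at 0.13 generations, and at −0.05, −0.12 and −0.14 at 0.25 generations. The arrays at 0.13 generations lay above all control arrays, and those at 0.25 generations lay within or just below their range. The change at 0.13 generations was 0.52 ± 0.10 (1.43-fold), which missed Holm's threshold (adjusted p = 0.0655) and passed that of Benjamini-Hochberg (adjusted p = 5.64e-05). At 0.08 generations, when 10 subunits were called, RPN4 was at 0.20 ± 0.10 (Holm's adjusted p = 1).

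**Figure D3:**
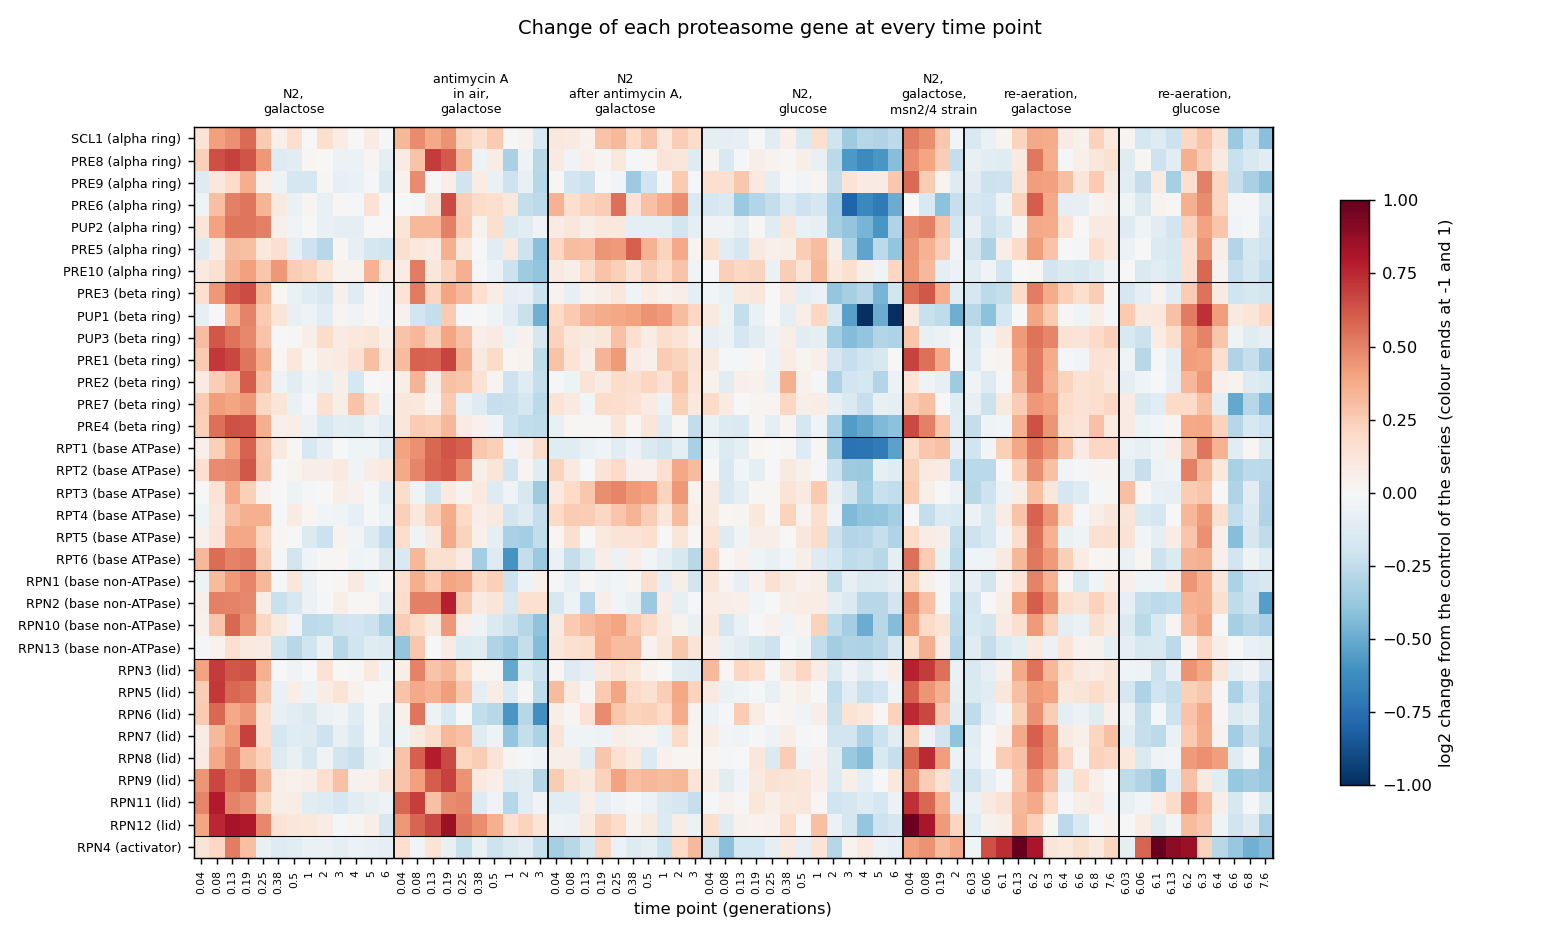
Log2 change from the control of the time course (colour, from −1 in blue to 1 in red) of each of the 33 genes (rows, ordered by part of the proteasome) at every time point (columns, generations) of the 7 time courses. In N2 in galactose and in both re-aeration courses nearly all subunit rows are red within the same 2 to 4 columns, with RPN13 among the palest.

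Antimycin A tested whether a block of respiration in air was followed by the same rise. The subunits were at a median change of 0.35 at 0.08 generations, 0.24 at 0.13, 0.39 at 0.19 (1.31-fold) and 0.25 at 0.25, and near 0.05 at 0.38 and 0.5. Array by array the median was 0.40 ± 0.01 at 0.19 generations (SD, n = 3). It lay lower at 0.13 generations (0.21 ± 0.06) than at 0.08 (0.35 ± 0.03) and at 0.19. For 19 of the 32 subunits the largest change was at 0.19 generations, and for 10 at 0.08. Consecutive time points came from alternating fermentor runs, so time and run cannot be told apart in these differences. An effect of the run was not tested. Under quantile normalization the subunit median in antimycin A was 0.19 at 0.08 generations, 0.13 at 0.13, 0.22 at 0.19 and 0.13 at 0.25. In N2 in galactose the same normalization gave 0.32, 0.35, 0.50 and 0.35 at these time points.

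RPN12 was the 1 of the 33 genes called by Holm's adjustment in antimycin A (3.03%, against 23.6% of all ORFs). Its arrays went from 0.22, −0.09 and 0.00 before treatment to 0.86, 0.83 and 1.02 at 0.19 generations, with no overlap. The change was 0.86 ± 0.12 (1.82-fold, adjusted p = 0.000482), and the call was lost without replicate number 2 or 3, under quantile normalization and in fits on only the groups compared. By Benjamini-Hochberg 13 of the 33 genes were called at 1 or more time points (54.8% of all ORFs), all higher, among them the ATPases RPT1 (0.63 at 0.19 generations) and RPT2 (0.62), the scaffold subunit RPN2 of the base (0.78), PRE1 (0.68), RPN8 (0.66), RPN9 (0.68) and PRE8 (0.61). Of the subunits 6 were called as higher at 0.08 generations (16.2% of all ORFs) and 11 at 0.19 (19.0%), where the arrays of 24 of 32 subunits lay above all control arrays (30.1% of all ORFs). The 13 genes became 6, 8, 4, 11 and 13 without replicate number 1, 2, 3, 4 and 5.

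RPN4 passed neither threshold in antimycin A. Its arrays were at 0.68, 0.44 and 0.66 before treatment and at 0.56, 0.38 and 0.61 at 0.19 generations, and the groups overlapped. Its change lay between −0.23 and 0.17 over the 10 time points, with Holm's adjusted p = 1 at each. Under quantile normalization its change was −0.34 at 0.08 generations, −0.19 at 0.13, −0.37 at 0.19 and −0.46 at 0.25, and none of these was called. At 1, 2 and 3 generations of antimycin A the subunit median was −0.18, −0.12 and −0.25, and none of the 33 genes was called as lower. The value at 3 generations rests on arrays between −0.61 and −0.04, the lowest of which is the array that stood apart. The change in antimycin A was also set against that in N2 at the 10 shared time points, as an interaction term in limma. For 0 of the 33 genes did it differ by Holm's adjustment (15.7% of all ORFs) and for 0 by Benjamini-Hochberg (39.1% of all ORFs). Of the 33 genes 18 had an unadjusted p under 0.05 at 1 or more time points (76.7% of all ORFs). The median difference of the subunits was −0.10 at 0.08 generations, −0.23 at 0.13 and −0.06 at 0.19 (antimycin A minus N2), and that of RPN4 was −0.38 ± 0.18 at 0.13 generations (Benjamini-Hochberg adjusted p = 0.199).

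In cells that had spent 3 generations in antimycin A, few proteasome genes moved on the shift to N2. The median change of the subunits was 0.08 at 0.08 generations, 0.05 at 0.13, 0.16 at 0.19, 0.19 at 0.25 and 0.21 at 2 generations. None of the 33 genes was called by Holm's adjustment in limma (17.8% of all ORFs), 14 had an unadjusted p under 0.05 at 1 or more time points (81.4%), and 2 were called by Benjamini-Hochberg (47.4%), namely the ATPase RPT3 (0.49 ± 0.12 at 0.25 generations) and PRE5 of the alpha ring (0.60 ± 0.15 at 0.38, where 1 array has no value). Both of these were lost without replicate number 1, 2 or 3. At 0.25 generations the arrays of 5 of 32 subunits lay above all control arrays (16.1% of all ORFs). The control includes the array that stood apart, and without it the subunit median turned to −0.16 at 0.08 generations and −0.12 at 0.13 and was 0.01 at 0.19, 0.02 at 0.25 and 0.01 at 2.

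RPN12 was at −0.02, 0.26 and 0.12 at 0.08 generations of N2 with antimycin A, against 0.41, −0.08 and 0.21 before it. RPN11 was at 0.27, 0.14 and 0.00 at 0.08 generations. The changes in N2 with antimycin A were lower than those without it for 2 of the 33 genes by Holm's adjustment (29.7% of all ORFs), RPN11 by 0.90 ± 0.17 (adjusted p = 0.00551) and RPN12 by 0.81 ± 0.14 (adjusted p = 0.00207), both at 0.08 generations. Neither difference was called without replicate number 1, 3 or 4, and both were without number 2, that of the array that stood apart. Fits on only the groups compared called 0 genes and quantile normalization 1. By Benjamini-Hochberg 8 of 32 subunits were lower at 0.08 generations (20.0% of all ORFs) and 8 at 0.13 (17.3%). The median difference of the subunits was −0.37 at 0.08, −0.44 at 0.13 and −0.36 at 0.19 generations. RPN4 was lower by 0.68 ± 0.17 at 0.13 generations (Benjamini-Hochberg adjusted p = 0.000841, Holm's adjusted p = 0.933).

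**Figure D4:**
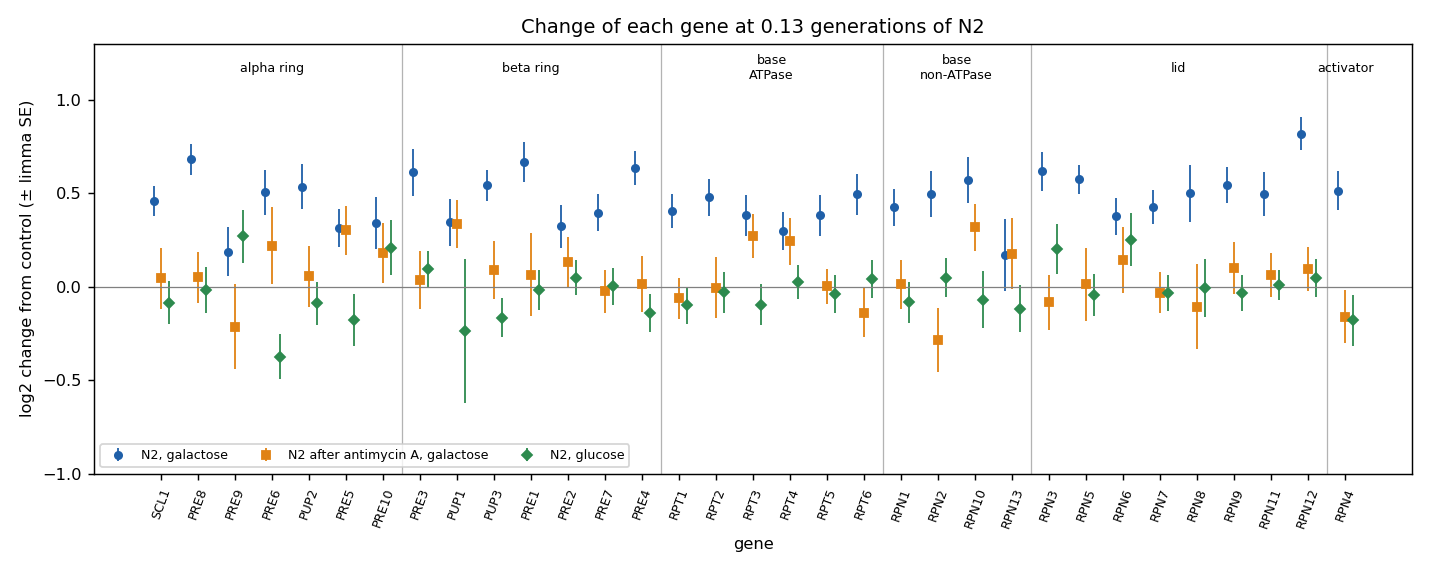
Log2 change from the control (y axis, ± limma SE, 3 arrays per group) of each of the 33 genes (x axis, by part of the proteasome) at 0.13 generations of N2 in galactose (circles), in galactose after antimycin A (squares) and in glucose (diamonds). The circles lie between 0.17 and 0.82 for the subunits, above the glucose points for all subunits but PRE9. The squares lie between −0.28 and 0.34 for the subunits.

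In glucose, where respiration is repressed before oxygen is removed, the early rise was not seen. The median change of the subunits lay between −0.06 and 0.07 from 0.04 to 1 generation. RPN12 was at 0.10, 0.13 and 0.09 in air, at −0.07, 0.02 and 0.00 at 0.08 generations and at 0.00, 0.30 and 0.13 at 0.19 generations, with overlap at the last. Against galactose the change in glucose was lower for 9 of the 33 genes at 1 or more time points by Holm's adjustment (27.3%). Of all ORFs 16.3% were lower at 1 or more time points, and 33.3% differed in either direction. The 9 genes were RPN5, RPN7, RPN9, RPN11 and RPN12 of the lid, PUP3 and PRE4 of the beta ring, PRE8 of the alpha ring and RPT1 of the base. The difference was largest for RPN12 at 0.08 generations (−0.88 ± 0.13, adjusted p = 4.79e-05). Without replicate number 1, 2 or 3 there were 1, 1 and 0 such genes, under quantile normalization 3 and in fits on only the groups compared 0. By Benjamini-Hochberg 14 of 32 subunits were lower in glucose at 0.08 generations (20.9% of all ORFs), 19 at 0.13 (20.9%) and 16 at 0.19 (12.3%), and the median difference was −0.44, −0.51 and −0.52.

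RPN4 was at 0.28, 0.16 and −0.05 in air in glucose and at −0.08, −0.47 and −0.31 at 0.08 generations, all below the control arrays. That change of −0.42 ± 0.14 missed both thresholds (Benjamini-Hochberg adjusted p = 0.0351). It differed from the change in galactose by −0.69 ± 0.17 at 0.13 generations (Benjamini-Hochberg adjusted p = 0.00046, Holm's adjusted p = 0.563).

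The subunits were lower late in the glucose culture. Their median change was −0.20 at 2 generations, −0.27 at 3, −0.30 at 4 (0.81-fold), −0.25 at 5 and −0.18 at 6, against a median of all ORFs between −0.01 and 0.07. Of the 33 genes 2 were called by Holm's adjustment in glucose (6.06%, against 27.3% of all ORFs), both lower, and both calls were lost without replicate number 2 or 3 and in fits on only the groups compared. RPT1, an ATPase of the base, went from 0.18, 0.37 and 0.22 in air to −0.48, −0.61 and −0.36 at 3 generations. Its change was −0.74 ± 0.10 at 3 generations (adjusted p = 7.84e-05) and −0.70 ± 0.10 at 5. PRE6 of the alpha ring went from 0.26, 0.33 and 0.52 to −0.27, −0.46 and −0.55 at 3 generations, a change of −0.80 ± 0.12 (adjusted p = 0.000818).

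Neither gene's arrays at 3 generations overlapped with its control. By Benjamini-Hochberg 16 of the 33 genes were called at 1 or more time points (63.6% of all ORFs), all lower, and 13 of 32 subunits at 4 generations (18.5% of all ORFs). They became 13, 9 and 8 genes without replicate number 1, 2 and 3. At 4 generations the arrays of 24 of 32 subunits lay below all control arrays (26.4% of all ORFs). The lid had the smallest median change, −0.22 ± 0.15 at 4 generations against −0.47 ± 0.10 for the alpha ring and −0.37 ± 0.02 for the ATPases (SD, n = 3). RPT1 was also lower than in galactose, by 0.75 ± 0.13 at 3 generations (Holm's adjusted p = 0.0022). PUP1 was at −0.45, 0.06 and −1.77 at 4 generations and at −0.15, −0.18 and −2.75 at 6, so that 1 array carried most of its change of −1.38 ± 0.39 at 6 generations. RPN4 changed by −0.29 ± 0.14 at 2 generations and lay between −0.08 and 0.10 from 3 to 6.

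The msn2/4 strain, in which MSN2 RNA was near absent, was used to ask which responses to N2 need the general stress activators Msn2 and Msn4. Its subunits were highest at the first time point. Their median change was 0.45 at 0.04 generations (1.37-fold), 0.29 at 0.08, 0.11 at 0.19 and −0.13 at 2, whereas the wild type had 0.11, 0.41, 0.51 and −0.02 at these times. Array by array the medians of the mutant were 0.42 ± 0.05 at 0.04 generations and 0.13 ± 0.03 at 0.19, against 0.14 ± 0.04 and 0.49 ± 0.04 in the wild type (SD, n = 3). For 26 of the 32 subunits the largest of the 4 changes was at 0.04 generations.

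None of the 33 genes was called by Holm's adjustment in limma in the mutant (6.58% of all ORFs), while 26 had an unadjusted p under 0.05 at 1 or more time points (72.8%). By Benjamini-Hochberg 10 were called (42.6% of all ORFs), 8 of the subunits at 0.04 generations (6.35% of all ORFs) and 8 at 0.08 (13.3%). Without replicate number 1, 2 or 3 the 10 became 1, 1 and 0, and with 4 time points after the control this fit had the fewest arrays, 15. At 0.04 generations the arrays of 26 of 32 subunits lay above all control arrays (25.5% of all ORFs). RPN12 went from −0.44, −0.64 and −0.61 to 0.52, 0.32 and 0.40, a change of 0.98 ± 0.14 (1.97-fold, Benjamini-Hochberg adjusted p = 0.000386, Holm's adjusted p = 0.042). RPN11 went from −0.22, −0.18 and −0.14 to 0.63, 0.47 and 0.56 (0.73 ± 0.12, Benjamini-Hochberg adjusted p = 0.000831). Both moved without overlap.

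RPN3 (0.77), RPN6 (0.75), PRE1 (0.68), PRE4 (0.66), RPN5 (0.60) and RPN8 (0.57) completed the genes called at 0.04 generations, so 6 of the 8 were lid subunits. The lid was at a median of 0.63 ± 0.08 and the ATPases at 0.21 ± 0.03, with RPT4 at −0.01. Set against the wild type, the change in the mutant differed for 1 of the 33 genes by Holm's adjustment (8.87% of all ORFs). RPN7 of the lid went from 0.07, 0.03 and −0.12 to −0.10, −0.31 and −0.18 at 0.19 generations of the mutant, and its change was lower than in the wild type by 0.87 ± 0.13 (adjusted p = 0.000225). That call was lost without replicate number 1 or 2 and in fits on only the groups compared, and 3 genes were called with the replicate number as a block. The median difference of the subunits (mutant minus wild type) was 0.27 at 0.04 generations, with 30 of 32 above 0 and 1 called as higher by Benjamini-Hochberg, and −0.34 at 0.19 generations, with 31 of 32 below 0. By Benjamini-Hochberg 8 subunits were lower in the mutant at 0.19 generations (8.51% of all ORFs). RPN4 was at 0.13, 0.58 and 0.36 at 0.04 generations of the mutant against −0.16, 0.03 and −0.04 in air, with no overlap. Its changes of 0.41, 0.45, 0.31 and 0.38 at the 4 time points (SE 0.18) missed both thresholds.

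When air was restored after 6 generations of N2, RPN4 rose first and the subunits followed. In galactose RPN4 was at −0.41, −0.37 and −0.27 on the anaerobic arrays, at 0.19, 0.17 and 0.51 at 6.06 generations, at 0.70, 0.62 and 0.81 at 6.13, and at −0.16, −0.19 and −0.32 at 6.3. The arrays from 6.06 to 6.13 generations lay above all anaerobic arrays. The change of RPN4 was 0.64 ± 0.14 at 6.06 generations, 0.74 ± 0.14 at 6.1, 1.05 ± 0.14 at 6.13 (2.08-fold, Holm's adjusted p = 0.000202), 0.82 ± 0.14 at 6.2 (adjusted p = 0.0141) and 0.12 ± 0.14 at 6.3. At 6.06 and 6.1 generations it passed by Benjamini-Hochberg (adjusted p = 0.000782 and 8.08e-05). Over the same time points the subunit median was −0.11, 0.03, 0.25, 0.48 (1.40-fold) and 0.36, against −0.08 to 0.03 for all ORFs.

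**Figure D5:**
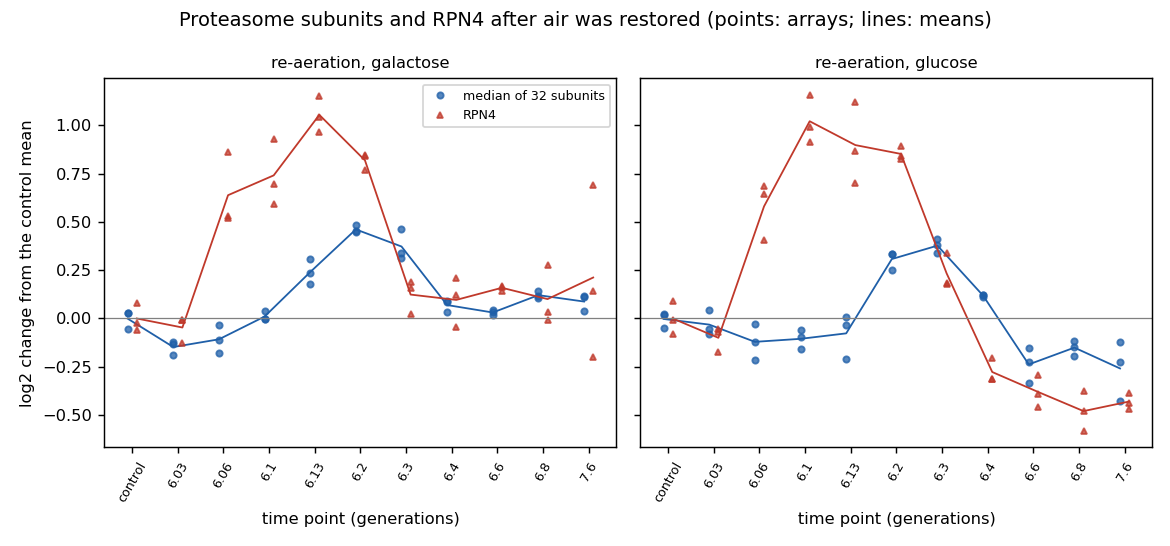
Log2 change from the anaerobic control (y axis) after air was restored at 6 generations (x axis, generations) for the median of the 32 subunits (circles) and RPN4 (triangles), 1 point per array and lines through the means. RPN4 is at 0.64 in galactose and 0.58 in glucose at 6.06 generations, when the means of the subunit medians are −0.11 and −0.12. The subunit medians peak at 6.2 generations in galactose and 6.3 in glucose.

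Of the 33 genes 8 were called by Holm's adjustment after re-aeration in galactose (24.2%, against 27.4% of all ORFs), RPN4 and the 7 subunits PRE6, PUP3, PRE4, RPT1, RPT4, RPN7 and RPN8. All 7 were called at 6.2 generations and were higher (6.23% of all ORFs). By Benjamini-Hochberg 30 of the 33 genes were called at 1 or more time points (65.6% of all ORFs), all but RPT3, RPN13 and PRE10. The subunits called as higher by it numbered 11 at 6.13 generations (16.5% of all ORFs), 28 at 6.2 (13.7%) and 18 at 6.3 (17.3%). At 6.2 generations the arrays of 29 of 31 subunits with every value lay above all anaerobic arrays (24.9% of all ORFs). Without replicate number 1, 2 or 3 there were 0, 1 and 0 genes called by Holm's adjustment and 14, 18 and 20 by Benjamini-Hochberg, and fits on only the groups compared called 1 by Holm's adjustment. RPN4 at 6.13 generations kept changes of 1.03 and 1.05 without replicate number 1 or 3 and lost the call (adjusted p = 0.424 and 0.0276).

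PRE4 of the beta ring went from 0.02, −0.09 and 0.08 to 0.58, 0.62 and 0.73 at 6.2 generations, a change of 0.64 ± 0.08 (adjusted p = 0.00013). RPN7 of the lid went from 0.02, −0.09 and −0.03 to 0.54, 0.55 and 0.61, a change of 0.60 ± 0.09 (adjusted p = 0.00112). In both cases the groups lay far apart. The changes of PRE6 (0.60), RPT4 (0.59), PUP3 (0.54), RPN8 (0.54) and RPT1 (0.53) were of the same size, and the medians of the parts lay between 0.42 ± 0.07 for the alpha ring and 0.52 ± 0.05 for the beta ring (SD, n = 3). For 30 of the 32 subunits the largest change fell at 6.2 generations. PRE10 was at 0.01 ± 0.12 and RPN13 at 0.10 ± 0.14, and RPN12, the strongest in N2, was at 0.24 ± 0.10 (Benjamini-Hochberg adjusted p = 0.051).

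In glucose RPN4 rose in the same window. It was at −0.05, −0.12 and 0.05 on the anaerobic arrays, at 0.65, 0.61 and 0.37 at 6.06 generations, at 1.12, 0.95 and 0.88 at 6.1, and at 0.80, 0.85 and 0.79 at 6.2, with no overlap. The change was 0.58 ± 0.09 at 6.06 generations (Holm's adjusted p = 0.00662), 1.02 ± 0.09 at 6.1 (2.03-fold, adjusted p = 9.07e-08), 0.90 ± 0.09 at 6.13 (adjusted p = 1.55e-06) and 0.85 ± 0.09 at 6.2 (adjusted p = 4.69e-06). RPN4 was the 1 of the 33 genes called in this time course (3.03%, against 21.1% of all ORFs), and it was called at 1 or more time points whichever replicate was left out. At 6.06 generations the call was lost without any 1 of the replicates, and at 6.13 and 6.2 without replicate number 2.

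The subunit median in glucose was −0.10 at 6.1 generations and −0.08 at 6.13, when RPN4 was near its highest, and 0.31 at 6.2, 0.39 at 6.3 (1.31-fold) and 0.09 at 6.4. At 6.3 generations the arrays of 30 of 31 subunits with every value lay above all anaerobic arrays (23.2% of all ORFs), and 23 of the 32 had their largest change there. By Benjamini-Hochberg 17 of the 33 genes were called at 1 or more time points (49.8% of all ORFs), with 7 subunits higher at 6.2 generations (14.2%) and 10 at 6.3 (13.0%), and 14, 2 and 7 genes without replicate number 1, 2 and 3. PUP1 (0.73), PRE10 (0.58), PRE3 (0.54) and RPT1 (0.53) had the largest changes at 6.3 generations, so that PRE10, near 0 in galactose, was among the highest here. The arrays of PRE10 went from 0.11, 0.27 and 0.44 to 0.68, 0.93 and 0.94. PUP1 holds 10 of the 17 missing values of the proteasome genes, and not every subunit had all its values at 6.3 generations. Later the subunits and RPN4 lay below the anaerobic control in glucose, with a subunit median of −0.25 at 7.6 generations and RPN4 at −0.48 ± 0.09 at 6.8 (Benjamini-Hochberg adjusted p = 0.000166, Holm's adjusted p = 0.109).

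The 2 media were compared by interaction terms at the 10 time points of re-aeration. For 0 of the 33 genes did the change differ by Holm's adjustment in limma (9.23% of all ORFs), for 7 by Benjamini-Hochberg (28.1% of all ORFs), and 27 had an unadjusted p under 0.05 at 1 or more time points (71.2% of all ORFs). RPN4 was lower in glucose by Benjamini-Hochberg at 6.8 generations (by 0.58 ± 0.17, adjusted p = 0.00772) and at 7.6 (by 0.64 ± 0.17, adjusted p = 0.00564). Between 6.03 and 6.3 generations its difference lay between −0.16 and 0.28 (SE 0.17). The subunits had a median difference of −0.31 at 6.13 generations (31 of 32 lower in glucose), −0.17 at 6.2 and 0.04 at 6.3.

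Genes that build, feed or regulate the proteasome were followed in 4 lists. In N2 in galactose 6 of the 9 assembly chaperones were called as higher by Holm's adjustment, UMP1, HSM3, RPN14, NAS2, NAS6 and POC4 (21.6% of all ORFs were). UMP1, which matures the core, was at 0.66 ± 0.09 at 0.19 generations. POC4 was highest, at 0.99 ± 0.09 at 0.19 generations (adjusted p = 3.35e-08), and was then called as lower at 0.38 generations (−0.81 ± 0.09). Of the 5 proteasome-associated proteins ECM29, which binds both the core and the regulatory particle, and HUL5, a ubiquitin ligase, were called as higher. ECM29 was at 0.94 ± 0.12 at 0.19 generations, 1.04 ± 0.13 in antimycin A at 0.19, 1.08 ± 0.10 at 6.2 generations of re-aeration in galactose and 0.97 ± 0.12 at 6.3 in glucose, and was called in each of these. In antimycin A and in re-aeration it was the 1 of the 5 genes called as higher. The share of all ORFs was 11.4% in antimycin A, and in re-aeration 16.1% in galactose and 12.9% in glucose. No gene of these 2 lists was called in N2 in glucose, in N2 with antimycin A or in the msn2/4 strain, where 27.3%, 17.8% and 6.58% of all ORFs were. POC4 and ADD66 were called as lower in re-aeration in glucose (9.06% of all ORFs), POC4 by 0.75 ± 0.09 at 6.2 generations.

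Of the 12 genes for ubiquitin and the delivery of substrates, 5 were called as higher in N2 in galactose, UBI4, DOA4, SHP1, NPL4 and DDI1 (21.6% of all ORFs). UBI4, the polyubiquitin gene, was at 1.69 ± 0.07 at 0.13 generations (3.23-fold, adjusted p = 6.05e-18), at 1.70 ± 0.11 at 0.19 generations of antimycin A and at 1.86 ± 0.20 at 0.08 generations of the msn2/4 strain. It was lower late in glucose (−1.19 ± 0.09 at 6 generations). Over the course of N2 in glucose UBI4 and DDI1 were the 2 of the 12 genes called as lower (15.3% of all ORFs). At 0.13 and at 0.19 generations 1 of these 2 was already called. In N2 with antimycin A UBI4 was the 1 of the 12 genes called as higher, at 2 generations (10.4% of all ORFs at 1 or more time points). Ubiquitin is encoded by several yeast genes with near-identical repeats, and whether the UBI4 probe separates them was not tested. DOA4, which recycles ubiquitin, reached 1.32 ± 0.11 at 0.08 generations of N2 and 1.38 ± 0.16 in antimycin A. In re-aeration 2 of the 12 genes, UFD1 and UBI4, were called as higher in both media (16.1% of all ORFs in galactose and 12.9% in glucose). UFD1 was at 0.84 ± 0.09 in galactose and 0.70 ± 0.09 in glucose at 6.2 generations. Of the 8 genes that regulate RPN4 or the turnover of its product, the 2 genes YAP1 and MUB1 were called as higher in N2 in galactose (21.6% of all ORFs). YAP1 is an oxidative stress activator that is known to bind the RPN4 promoter. It was the 1 of the 8 genes called in re-aeration, as higher in both media (16.1% of all ORFs in galactose and 12.9% in glucose). It was at 1.11 ± 0.11 at 6.13 generations in galactose and 1.37 ± 0.11 at 6.2 in glucose. The part of YAP1 in the RPN4 values was not tested.

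Over the 70 group means of the 7 time courses, each as a change from its control, the profile of a subunit correlated with the median of the other 31 subunits at a median r of 0.81, from 0.51 for PRE10 to 0.91 for PRE1. PUP1 (0.53) and PRE9 (0.58) were next to PRE10 at the low end, and PRE4, RPN5 and PRE3 (0.90 to 0.91) next to PRE1. Time points of a course share their control arrays, so these correlations describe likeness only. RPN4 correlated with the subunit median at 0.34 over all 70. By course the value was 0.87 over the 13 time points of N2 in galactose at 0.34 over the 10 of each re-aeration course, at 0.43 in antimycin A in air, at 0.19 in N2 with antimycin A, at −0.09 in N2 in glucose and at 0.50 over the 4 of msn2/4. Over all ORFs the median correlation with the subunits was −0.01 and the 99th percentile 0.64. The 10 ORFs outside the set with profiles most like the subunits were ECM29 (0.82), DDI1 (0.80), ALG13 (0.78), SHP1 (0.77), UBA1 (0.76), SSA2 (0.75), OTU1 (0.74), UMP1 (0.73), DSK2 (0.72) and MUB1 (0.71). Of these 7 belong to the 4 lists above, of whose 34 genes 10 passed the 99th percentile. ALG13 lies next to RPT6 in the reference annotation (R64). The 33 genes lie on 13 chromosomes, and PRE4 and RPN12, like RPT4 and RPN8, are separated by 1 gene.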

How the data were processed

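The authors scanned 2-color oligonucleotide arrays, corrected and normalized the spots, and deposited them as ratios read here as log2 values, sample (Cy3) over reference (Cy5), with the base and the direction not given in the sources used here. Base 2 gave the most even levels of strong and weak genes in 3 of the 4 time courses whose reference was a pool of their own samples, and a natural logarithm did slightly better in N2 in glucose. Since every array is centred near 0, RNA changes common to the whole cell leave no trace. The number of arrays limits the precision.

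Each time course was fitted with limma 3.58.1 (lmFit and eBayes, R 4.3.3), with a mean for every time point, and compared with their control wherever both groups had at least 2 values. P-values were adjusted over all ORFs of a time point by Holm's method at 0.01, following the study's methods. Differences between time courses were interaction terms, and all those of N2 or antimycin A share the arrays of N2 in galactose. The fits were tried on simulated data in which the noise of every array was independent. Arrays of the same replicate number were not made alike there, so the trial cannot speak for p-values where they are. Per the methods the antimycin A time series was run in triplicate in fermentors. For the other courses the labels do not say that replicate arrays came from separate cultures, so their p-values measure the spread between these arrays, which may be technical. The 33 genes and the 4 lists were chosen with earlier results of these data known. All 33 are named, with full values for those with the largest called changes, beside called genes of the lists and the 10 most alike ORFs. Of 5609 ORFs 5597 carried a name in the reference annotation. Promoter sequences were not analysed here. The alternatives were other adjustments, normalizations and fits and each replicate left out.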

Additional observations from a re-analysis of the deposited data

Results flagged for a closer look

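The change from the control differed between time courses, by the interaction term in limma (Holm's adjusted p of 0.01 or less), for 12 combinations of gene and comparison. Values are differences on the log2 scale at the time point with the smallest adjusted p, and all are lower in the course named first.

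Glucose against galactose in N2 gave 9 of them. At 0.08 generations these were PRE8 (−0.80 ± 0.15), RPN5 (−0.78 ± 0.13), RPN9 (−0.79 ± 0.14), RPN11 (−0.75 ± 0.14) and RPN12 (−0.88 ± 0.13, SE). At 0.13 generations they were PUP3 (−0.71 ± 0.13) and PRE4 (−0.78 ± 0.13), and at 0.19 generations RPN7 (−0.69 ± 0.13). RPT1 differed at 3 generations (−0.75 ± 0.13), where it was lower in glucose and near 0 in galactose.

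N2 with against without antimycin A gave 2 of them at 0.08 generations, RPN11 (−0.90 ± 0.17) and RPN12 (−0.81 ± 0.14). The msn2/4 strain against the wild type gave RPN7 at 0.19 generations (−0.87 ± 0.13). All 12 share the arrays of N2 in galactose. Groups of 3 arrays are too small for a test of single outlying arrays.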

How the results depend on the processing

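Counts of the 33 genes are given in the order N2 in galactose, antimycin A in air, N2 with antimycin A, N2 in glucose, N2 of msn2/4, re-aeration in galactose and re-aeration in glucose, where Holm's adjustment called 14, 1, 0, 2, 0, 8 and 1. Benjamini-Hochberg called 30, 13, 2, 16, 10, 30 and 17, quantile normalization 10, 0, 0, 1, 1, 11 and 1, fits on only the groups compared 0, 0, 0, 0, 0, 1 and 1, and a change of at least 2-fold left 0, 0, 0, 0, 0, 1 and 1. With 1 replicate left out they ranged from 1 to 4, 0 to 1, 0 to 0, 0 to 2, 0 to 0, 0 to 1 and 1 to 1. Genes whose change differed (glucose against galactose in N2, with against without antimycin A, antimycin A against N2, msn2/4 against wild type, and glucose against galactose in re-aeration) numbered 9, 2, 0, 1 and 0, by Benjamini-Hochberg 26, 14, 0, 9 and 7, by quantile normalization 3, 1, 0, 1 and 2, in fits on only the groups compared 0, 0, 0, 0 and 0, past 2-fold 0, 0, 0, 0 and 0, and with 1 replicate left out 0 to 1, 0 to 2, 0 to 0, 0 to 1 and 0 to 0. Array median centring and values required on every array moved none of these counts by over 1.5 times. In the same order of comparisons, the change differed by Benjamini-Hochberg for 63.8%, 57.9%, 39.1%, 31.1% and 28.1% of all ORFs. No source ties arrays of 1 replicate number together. Deviations of same-numbered arrays correlated at a median of 0.06 to 0.21 by course, against −0.11 to −0.03 for other numbers, and 40.0% to 87.9% of the pairs passed 0.1. The arrays closest to their own number were 33 of 33 in re-aeration in galactose, 30 of 33 in re-aeration in glucose and 14 of 15 in msn2/4. They were 35 of 42 in N2 in galactose, 31 of 41 in N2 in glucose, 19 of 33 in antimycin A in air and 17 of 30 in N2 with antimycin A. Without a source for the numbers, the main fits did not use them as pairs and leave this likeness out. With the replicate number as a block the counts were 15, 1, 0, 2, 0, 10 and 1, and 8, 1, 0, 3 and 0.

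Of 210 alternatives to 38 subunit medians, 161 had a reported value beyond 0.1 in size and all 161 kept its sign. A kept sign does not mean a kept size. Without replicate number 2 the medians of N2 with antimycin A fell to 0.004 at 0.19 generations, 0.010 at 0.25 and 0.007 at 2. Its smaller medians at 0.08 and 0.13 generations turned to −0.19 and −0.07. The largest move under centring or scaling was 0.17, for antimycin A at 0.19 generations. RPN4 had 38 changes and 210 alternatives, 14 of which turned a sign, all of uncalled values. Quantile normalization turned antimycin A at 0.13 generations to −0.19, and N2 in glucose at 3 and 4 generations to −0.0492 and −0.0103. Centring turned glucose at 3 generations to −0.0066. With 1 replicate left out the values that could turn ranged from −0.10 to 0.0358 at 0.08 generations of antimycin A, from −0.0856 to 0.37 at 0.19 generations of N2 with antimycin A, from −0.30 to 0.0863 at 0.25 and from −0.0185 to 0.34 at 2, and in glucose from −0.0877 to 0.12 at 3 generations, from −0.0230 to 0.18 at 4 and from −0.23 to 0.0453 at 5. RPN4 at 6.2 generations in galactose passed under quantile normalization (0.89, Holm's adjusted p = 0.00084). The array that stood apart and Benjamini-Hochberg with replicates left out were added after seeing the data.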
